A study of Mus musculus with 6 samples.

Results

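The genes described here are 33 genes of glucose breakdown and of the response to low oxygen, out of 32285 genes in each expression matrix. They were listed by symbol: 21 belong to glucose transport, glycolysis and lactate, and 12 to oxygen sensing and its targets. All 33 were found in both matrices. The symbol Aldoa stood on 2 rows, of which the one with 106154 UMIs at day 13 and 75435 at day 19 was used. The other held 28 and 24. A UMI, or unique molecular identifier, tags 1 captured RNA molecule. Gapdh, Aldoa, Pgk1, Ldha, Eno1, Tpi1, Pkm and Mif have near-identical copies elsewhere in the genome, and no source used here states how reads shared with such copies were counted. Their levels carry that uncertainty.

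Glycolysis takes up glucose through transporters, phosphorylates and splits it, and harvests ATP while making pyruvate. Pyruvate either enters mitochondria or is turned into lactate and exported. When oxygen is low, the prolyl hydroxylases encoded by Egln1 and Egln3 lose activity, the transcription factor subunit encoded by Hif1a is no longer degraded, and many genes of both groups are induced. Activated and dividing T cells are known to use glycolysis heavily, and gliomas are known for poorly oxygenated regions. RNA levels do not measure glucose use or the amount of HIF-1 protein.

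The cells came from brain tumors of wild-type C57BL/6J mice aged 6-8 weeks that carried intracranial CT2A, a mouse glioma line, and CD3+ infiltrating cells were sorted for 10x Genomics 5' single-cell libraries. The question of the study, per its title, concerns how macrophages bear on the passage of T cells from progenitor to terminal exhaustion. Day 13 rests on 16 mice in pools of 4, and day 19 on 4 mice. Each day is 1 capture, so day, capture and pooling cannot be told apart, and no test was made on any difference given here. No group received a treatment, and all groups share the tumor line and the strain.

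Summed over genes, there were 144565182 UMIs at day 13 and 81224453 at day 19. Of the barcodes, 8878 and 4667 had at least 5000 gene UMIs and at most 10% mitochondrial UMIs, with medians of 9500.5 and 11214 UMIs, and 62 barcode sequences occurred on both days. A Cd3 UMI was found in 88.5% and 92.7% of them. The 1017 and 343 barcodes with neither a Cd3 UMI nor a T cell receptor contig go against the CD3+ label, and most of them carried markers of other lineages, described last. T cell receptor contigs are deposited in 4 tables per day, called contig sets 1 to 4, which held 4632 and 3215 of the kept barcodes. The labels do not say which mice or pools a table holds. Among kept barcodes, 16 of 184 clonotypes of 2 or more cells at day 13 and 51 of 168 at day 19 recurred in another table. The tables were therefore not used as replicates, and ranges over them are descriptions.

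CD8 T cells were those with any Cd8a or Cd8b1 UMI but no Cd4 UMI, and CD4 T cells the reverse, so droplets with both were left out. Foxp3 was read after each barcode was thinned to 5000 UMIs. Many T cell droplets also held myeloid RNA. At least 10 UMIs of 11 myeloid genes per 5000 were found in 14.4% of CD8 and 50.7% of CD4 T cells at day 13, and in 20.9% and 58.2% at day 19, and these were left out. This is a range and not a cell type: 88 and 84 T cell barcodes lay within 8 to 11 such UMIs. Cycling cells, with at least 3 UMIs of 12 cell cycle genes per 5000, were kept apart. This left 2217 and 1115 CD8, 280 and 204 Foxp3- CD4, and 85 and 73 Foxp3+ CD4 T cells. Levels are counts per 1000000 gene UMIs (CPM) of the summed cells. Ratios are log2 ratios of CPM with 95% Poisson intervals, which cover counting error only. A member entered a comparison where the 2 sums held 50 UMIs or more between them and is counted as higher or lower past 1.5-fold, a log2 ratio of 0.585.

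Upstream sequence is shown for 3 members whose levels differed by day or cell class in what follows: Bnip3 and Tpi1, both higher at day 19 in CD8 and CD4 T cells, and Slc16a3, which was past 1.5-fold in most of the comparisons. The 5-base core bound by HIF-1, read as ACGTG or GCGTG, was searched on both strands in RefSeq windows of 300 bases (250 before and 50 after a gene start) of build GRCm38.p6. CACGTG, which matches on both strands, was counted once. By symbol, 30 of the 33 members had 41 windows. Bnip3l, Ndrg1 and Slc2a3 had none. The core stood in 34 of the 41 windows (82.9%), against 14380 of all 32851 windows (43.8%), without matching for base composition. It was in a window of 28 of the 30 members and in none of Gpi1 and Tpi1. The share of all genes with the core in any window was not counted. Some windows of the same gene overlap, as for Eno1 and Aldoa, so the same bases can count more than once. The lines below give the 250 bases before the start, 5′ to 3′ on the gene's strand, with the core in capitals: chr7:138909507-138909756 (minus strand) for Bnip3 with 4 places, chr11:120948817-120949066 (plus strand) for Slc16a3 with 2, and chr6:124814159-124814408 (minus strand) for Tpi1 with 0. A match is a description of the letters and not a binding site.
Bnip3: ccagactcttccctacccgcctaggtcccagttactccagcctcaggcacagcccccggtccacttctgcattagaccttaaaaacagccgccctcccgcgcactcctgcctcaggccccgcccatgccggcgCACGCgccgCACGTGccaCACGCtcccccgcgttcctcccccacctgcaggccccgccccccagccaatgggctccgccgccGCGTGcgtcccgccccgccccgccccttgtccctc
Slc16a3: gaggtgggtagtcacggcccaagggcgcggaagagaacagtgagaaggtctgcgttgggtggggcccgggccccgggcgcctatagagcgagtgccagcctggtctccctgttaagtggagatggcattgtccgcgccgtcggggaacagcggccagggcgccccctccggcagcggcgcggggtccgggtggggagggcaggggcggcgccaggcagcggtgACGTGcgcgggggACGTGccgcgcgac
Tpi1: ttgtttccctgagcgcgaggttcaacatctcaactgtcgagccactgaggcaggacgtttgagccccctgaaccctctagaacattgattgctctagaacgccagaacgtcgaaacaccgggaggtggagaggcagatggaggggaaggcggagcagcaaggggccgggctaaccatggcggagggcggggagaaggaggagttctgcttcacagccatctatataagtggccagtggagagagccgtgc

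CD8 T cells had lower levels of most of the list than Foxp3- CD4 T cells on both days. Hif1a, which encodes the oxygen-regulated subunit of HIF-1, was at 236 CPM in CD8 and 587 CPM in Foxp3- CD4 T cells at day 13, and at 169 and 718 CPM at day 19. In the 4 contig tables, Hif1a ranged from 201 to 273 CPM in CD8 and from 512 to 682 CPM in Foxp3- CD4 T cells at day 13, and from 126 to 196 and from 490 to 796 CPM at day 19. No CD8 value reached a CD4 value on either day. The log2 ratios were -1.31 (95% interval -1.41 to -1.22) and -2.08 (-2.19 to -1.98).

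Among the enzymes, Ldha, which turns pyruvate into lactate, was at 676 against 1139 CPM at day 13 and at 841 against 1415 CPM at day 19, a log2 ratio of -0.75 on both days. Pkm, the last enzyme of glycolysis, had log2 ratios of -0.55 and -0.94, and Tpi1, which interconverts the triose phosphates, -0.68 and -1.01. All 4 tables had less Pkm in CD8 T cells on both days. Tpi1 was lower in CD8 T cells in 4 of 4 tables at day 13 and in 3 of 4 at day 19, where set 1 held 6 Foxp3- CD4 cells.

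The lactate exporter Slc16a3 was at 8.93 against 17.1 CPM at day 13 and at 10.8 against 55.3 CPM at day 19, log2 ratios of -0.94 and -2.36. Egln3, one of the hydroxylases that mark HIF-1 for degradation, stood at 5.50 against 10.1 CPM and at 4.53 against 14.6 CPM. Eno3, the muscle form of enolase, went the other way. It was at 11.4 CPM in CD8 and 5.04 CPM in Foxp3- CD4 T cells at day 13, and at 25.9 and 1.75 CPM at day 19, with more in CD8 T cells in all 4 tables of both days. The Foxp3- CD4 values of Eno3 rest on 10 and 3 UMIs, and 3 of the 4 sets had none at day 19. The glucose transporter Slc2a3 had log2 ratios of 0.43 (-0.16 to 1.09) and 1.00 (0.24 to 1.86). Without set 2, the day-19 value was 0.47.

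At day 13, 8 of 32 members were at least 1.5-fold lower in CD8 T cells, against 10.8% of all genes tested, and 1 was higher, against 8.86%. The members' median log2 ratio was -0.29 and that of all genes -0.08. At day 19, 11 of 31 were lower, against 15.9% of genes, and 3 were higher, against 9.35%, with medians of -0.42 and -0.15. By role, the day-19 medians were 0.35 for the 2 glucose transporters, -0.47 for the upper enzymes, -0.56 for the lower ones, -0.75 for lactate genes, -1.69 for oxygen sensing and -0.20 for the hypoxia targets. Of 48 other genes of the pathway, 30 could be compared at day 13 and 28 at day 19. Of them, 4 were higher in CD8 T cells and 8 lower at day 13, and 4 higher and 7 lower at day 19. Pdk2, a brake on pyruvate oxidation (0.76 and 1.80), and Myc, a growth transcription factor (1.09 and 1.73), were higher on both days. Rora (-2.16 and -3.48), Ldhb (-1.09 and -1.37), Mxi1 (-0.94 and -0.62) and Fam162a (-0.60 and -1.01) were lower on both.

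Without set 3, 5 of the 30 members still compared were lower and 2 higher at day 13, with Slc16a3 at -0.48 and Egln3 at -0.43, and Tpi1 was at -0.52 without set 1. With cycling cells included, 3 members were lower at day 13, and Slc16a3 was at -0.11, Tpi1 at -0.18 and Ldha at -0.51. The 11 myeloid genes were all detected in both classes and summed to 404 CPM in CD8 and 560 CPM in Foxp3- CD4 T cells at day 13, and to 394 and 612 CPM at day 19. Their part in the result was not tested. With the droplets rich in myeloid RNA kept, Ldha was at -0.42 and -0.49, Eno3 at 0.39 and 1.58, and Egln3 at -0.54 at day 13.

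**Figure D1:**
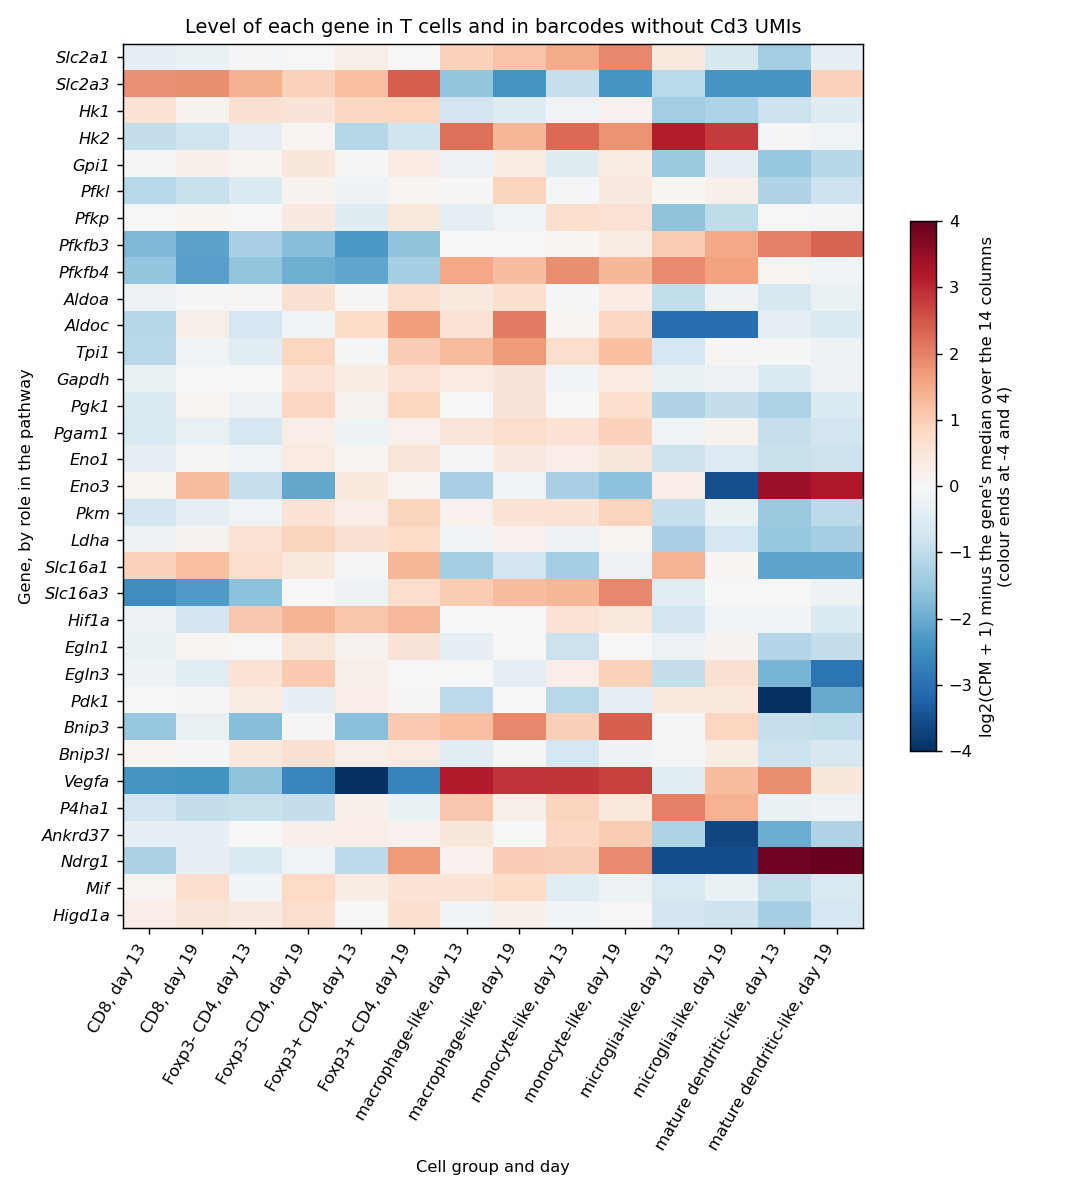
Level of the 33 genes (vertical axis, by role) in 7 cell groups on day 13 and day 19 (horizontal axis); colour is log2(CPM + 1) minus the gene's median over the 14 columns, with the colour scale ending at -4 and 4. Slc2a3 is high in the T cell columns, Hk2 in the macrophage-like, monocyte-like and microglia-like columns, Vegfa in the first 2 of these, and Eno3 and Ndrg1 in the mature dendritic-like columns, where Ndrg1 was at 174 and 368 CPM.

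Foxp3+ CD4 T cells, the regulatory class, differed from Foxp3- CD4 T cells in few members. Slc16a3 was at 47.8 CPM in Foxp3+ and 17.1 CPM in Foxp3- cells at day 13, and at 90.9 and 55.3 CPM at day 19. The log2 ratios were 1.48 (0.73 to 2.22) and 0.72 (0.21 to 1.21). By table, the Foxp3+ values were 79.7, 47.0, 59.9 and 18.3 CPM at day 13, and the Foxp3- values 17.0, 7.29, 26.6 and 16.6 CPM. Foxp3+ cells were higher in each table of day 13, though the lowest Foxp3+ table lay among the Foxp3- values, and in 3 of 4 tables of day 19.

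P4ha1, which hydroxylates collagen and is induced by low oxygen, was at 63.2 against 29.2 CPM at day 13 and at 45.5 against 28.0 CPM at day 19. Its log2 ratios were 1.11 (0.50 to 1.71) and 0.70 (-0.03 to 1.40), and the second interval holds 0. Bnip3, which marks mitochondria for removal, was at 56.8 against 28.0 CPM at day 19, with 35 UMIs in Foxp3+ cells. Pkm was higher in Foxp3+ cells in all 4 tables of both days, by 0.45 and 0.34. Pfkfb3, which makes the activator of phosphofructokinase, was the member past 1.5-fold in the other direction at day 13, at 10.8 against 22.7 CPM, a log2 ratio of -1.07 (-2.47 to 0.09).

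At day 13, 2 of 22 members were higher in Foxp3+ cells, against 9.04% of genes, and 1 was lower, against 8.37%. At day 19, 3 of 21 were higher, against 9.85%, and 0 lower, against 9.08%. These shares are near those of all genes. The median was 0.21 at day 13 and 0.03 at day 19, and that of all genes 0.03 and 0.01. Of the other pathway genes, 3 of 18 were higher and 1 lower at day 13, and 8 of 19 higher and 2 lower at day 19. Pdk3 (0.78 and 0.70) and Mxi1, a partner of the Myc network (0.63 and 1.42), were higher on both days.

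With myeloid-rich droplets kept, the log2 ratio of Slc16a3 was 0.50 at day 13 and 0.47 at day 19, and that of P4ha1 0.25 and -0.01. Bnip3 was then at 0.50 at day 19 and Pfkfb3 at -0.35 at day 13. With T cells outside the contig tables included, Pfkfb3 was at -0.34. Among cells with 1 TRA and 1 TRB chain, Bnip3 was at 0.56. The myeloid genes summed to 695 CPM in Foxp3+ and 560 CPM in Foxp3- cells at day 13 and to 777 and 612 CPM at day 19. The 6 B cell markers summed to 573 and 224 CPM at day 13, and at day 19, with 4 and 3 of them at 0, to 328 and 107 CPM. Their part in the result was not tested. Without set 2 of day 19 Slc16a3 was at 0.14, and Bnip3 and P4ha1 had under 50 UMIs and were not compared. At day 13, 4 were higher without set 3, and Pfkfb3 had under 50 UMIs without any 1 of the sets. P4ha1 was at 0.51 without set 4 of day 19.

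Between the days, most members stood higher at day 19 in both classes of T cell, and Tpi1, Pgk1 and Bnip3 were past 1.5-fold in both. In CD8 T cells Tpi1 was at 99.9 CPM at day 13 and 193 CPM at day 19. Its tables read 96.7, 97.5, 104 and 99.2 CPM at day 13 and 233, 180.1, 206 and 199.99 CPM at day 19. All tables of day 19 were above all of day 13. The log2 ratio was 0.95 (0.86 to 1.04).

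Pgk1, which makes ATP in the pay-off phase, was at 177 and 279 CPM in CD8 T cells (171 to 179 CPM over the tables of day 13, 268 to 323 CPM over those of day 19). Mif, a cytokine gene that HIF-1 induces, was at 525 and 774 CPM (494 to 546 and 705 to 945 CPM). The ranges did not overlap for either gene. The log2 ratios were 0.66 for Pgk1 and 0.56 for Mif.

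Bnip3 was at 8.70 CPM at day 13 and 21.8 CPM at day 19 in CD8 T cells, with tables at 6.37, 7.28, 9.32 and 11.8 CPM and at 19.9, 26.3, 20.7 and 11.03 CPM. Set 4 of day 19 lay inside the day-13 range. The log2 ratio was 1.32 (1.02 to 1.63). Aldoc, the brain form of aldolase, went from 2.66 to 8.48 CPM, a log2 ratio of 1.67 on 45 and 88 UMIs, and Eno3 from 11.4 to 25.9 CPM, a log2 ratio of 1.19. Ndrg1, a stress gene induced by low oxygen, had a log2 ratio of 1.09, and 0.22 with myeloid-rich droplets kept.

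Hif1a RNA did not share this direction in CD8 T cells. It was at 201, 273, 217 and 216 CPM in the tables of day 13 and at 126, 171, 196 and 151 CPM in those of day 19, with no overlap, a log2 ratio of -0.48 (-0.56 to -0.40). Hk1, the hexokinase that starts glycolysis in most cells, was also lower at day 19, at 62.7 and 47.1 CPM, a log2 ratio of -0.41 with no overlap of the tables. Pfkfb4, a relative of Pfkfb3, had the ratio furthest below 0, -0.98 (-1.96 to -0.09), on 45 and 14 UMIs.

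In Foxp3- CD4 T cells Bnip3 was at 7.56 and 28.0 CPM, Slc16a3 at 17.1 and 55.3 CPM, Tpi1 at 159.9 and 388 CPM and Pgk1 at 219 and 459 CPM. The log2 ratios were 1.89, 1.69, 1.28 and 1.07, in that order. The tables were apart for Pgk1 and overlapped for the other 3. Set 1 of day 19, with 6 cells, had 0 UMIs of Bnip3 and 193 CPM of Tpi1. Hif1a was higher at day 19 in these cells, at 587 and 718 CPM, a log2 ratio of 0.29 (0.17 to 0.41), with overlapping tables. Pdk1, which keeps pyruvate out of mitochondria, was at 25.2 and 16.3 CPM, a log2 ratio of -0.63 (-1.35 to 0.07).

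In CD8 T cells 6 of 33 members were higher at day 19, against 6.56% of genes, and 1 was lower, against 7.62%. The median was 0.22, with 25 of 33 above 0, and that of all genes -0.04. In Foxp3- CD4 T cells 9 of 23 were higher, against 7.67% of genes, and 1 was lower, against 7.26%, with medians of 0.46 and 0.02. The lower enzymes had medians of 0.38 and 0.72 in CD8 and CD4 T cells, the upper ones 0.17 and 0.38. Of the other pathway genes, 6 of 31 were higher and 2 lower in CD8 T cells. In Foxp3- CD4 T cells 4 of 23 were higher and 2 lower. Hilpda, which promotes lipid droplets and was named here after its values were seen, was at 86.1 against 24.6 CPM in CD8 and at 53.6 against 30.3 CPM in Foxp3- CD4 T cells. The 11 myeloid genes summed to 404 and 394 CPM in CD8 and to 560 and 612 CPM in Foxp3- CD4 T cells on the 2 days, and the 6 macrophage markers to 43.0 and 77.4 CPM and to 91.3 and 111 CPM. Their part in the result was not tested. Median depth was 6790 and 8162 UMIs in CD8 and 6204 and 7248.5 in Foxp3- CD4 T cells. The mix of CD8 states described below differed between the days too. Pdcd1- Tcf7+ cells were 1114 of 2217 at day 13 and 407 of 1115 at day 19, and Pdcd1+ Tcf7- Havcr2+ cells 82 and 144. The part of depth and of this mix was not tested. Whether the change differed between CD8 and CD4 T cells was not tested.

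In CD8 T cells Pfkfb4 had under 50 UMIs without set 2 or 3 of day 13, and where it could be compared it lay between -0.61 and -1.15. In Foxp3- CD4 T cells 0 were lower without set 4 of day 13 or set 1, 2 or 4 of day 19, where Pdk1 lay between -0.24 and -0.58. Bnip3 in Foxp3- CD4 T cells was at 0.56 with myeloid-rich droplets kept, and Pgk1 in CD8 T cells at 0.52 in barcodes with at least 8000 UMIs.

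**Figure D2:**
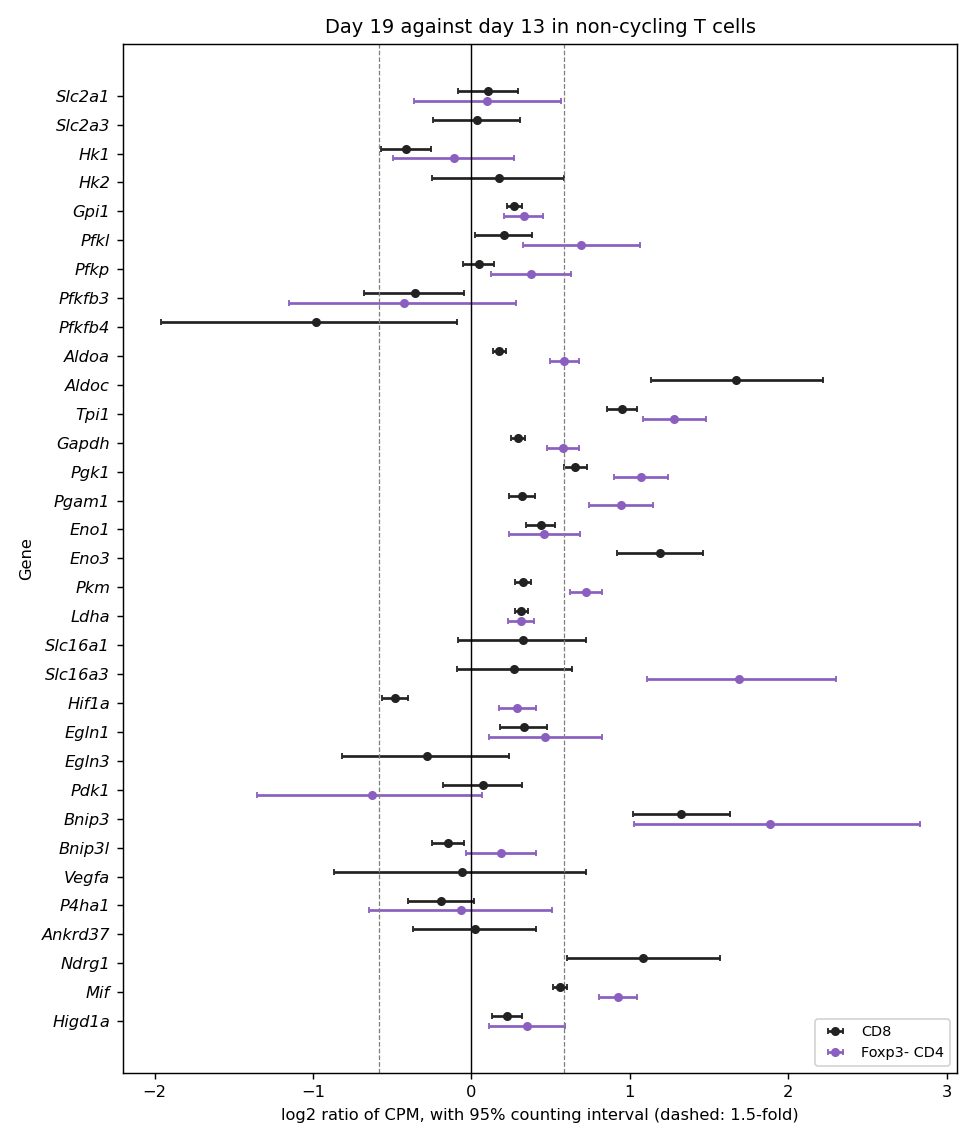
Log2 ratio of CPM at day 19 against day 13 (horizontal axis) for each gene (vertical axis) in non-cycling CD8 and Foxp3- CD4 T cells; points are ratios, bars 95% counting intervals, dashed lines 1.5-fold, and genes below 50 UMIs in a class have no point. Tpi1, Pgk1 and Bnip3 lie right of the dashed line in both classes, and Hif1a lies at -0.48 in CD8 and 0.29 in Foxp3- CD4 T cells.

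Within CD8 T cells the summed level of the list was lowest in Pdcd1- Tcf7+ cells and highest in terminal-like cells on both days. States were read from UMIs of Pdcd1, Tcf7 and Havcr2 after each cell was thinned to 5000 UMIs. Pdcd1+ Tcf7+ Havcr2- cells are called progenitor-like (258 and 59 cells) and Pdcd1+ Tcf7- Havcr2+ cells terminal-like (82 and 144). An absent UMI does not show an absent RNA. The 33 genes made up 0.413% of all UMIs in Pdcd1- Tcf7+ cells at day 13, 0.505% in Pdcd1- Tcf7- cells, 0.513% in progenitor-like, 0.669% in Pdcd1+ Tcf7- Havcr2- and 0.704% in terminal-like cells. At day 19 the shares in the same order were 0.483%, 0.616%, 0.614%, 0.689% and 0.728%. In Foxp3- CD4 T cells the share was 0.646% at day 13 and 0.949% at day 19. Both Pdcd1+ Tcf7- CD8 states were above it at day 13, and every CD8 state listed was below it at day 19.

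Gapdh, the enzyme that oxidizes the triose phosphate, was at 446, 597, 563, 848 and 936 CPM along these states at day 13, and at 496, 685, 701, 886 and 902 CPM at day 19. The 95% intervals of the last 2 states overlapped on both days, at 813 to 884 and 870 to 1007 CPM at day 13. Aldoa, which splits the sugar, was at 517 CPM in Pdcd1- Tcf7+ and 1192 CPM in Pdcd1+ Tcf7- Havcr2- cells at day 13, above the 1119 CPM of terminal-like cells. Hif1a differed more by Pdcd1 than by Havcr2 at day 13. It stood at 158 and 208 CPM in the Pdcd1- states and at 351, 370.0 and 404 CPM in the Pdcd1+ ones.

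In terminal-like against progenitor-like cells, Pgk1 was at 311 and 180.1 CPM at day 13, a log2 ratio of 0.79 (0.55 to 1.03), and at 343 and 261 CPM at day 19, a ratio of 0.39 (0.11 to 0.68). Gapdh had ratios of 0.73 and 0.36, Tpi1 of 0.76 and 0.49, and Aldoa of 0.54 and 0.53. All 4 tables were higher in terminal-like cells for Gapdh, Pgk1 and Aldoa on both days, though some tables held as few as 5 cells of a state at day 19. Bnip3, which had too few UMIs at day 13, was at 40.8 and 16.1 CPM at day 19, a ratio of 1.35 (0.28 to 2.62). Slc2a3 was at 38.3 and 14.1 CPM at day 19, a ratio of 1.45 (0.32 to 2.82).

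Pdk1 was the member furthest in the other direction at day 13. Its tables read 37.0, 17.8, 26.9 and 27.5 CPM in progenitor-like cells and 0, 13.0, 0 and 6.47 CPM in terminal-like cells, on 5 UMIs in the latter. Every terminal-like table was below every progenitor-like one. The log2 ratio was -1.90 (-3.59 to -0.58), and at day 19 the 38 UMIs of both states were too few to compare. Bnip3l, a relative of Bnip3, was at 126 and 193 CPM at day 19, a ratio of -0.62 (-0.98 to -0.25).

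At day 13, 5 of 21 members were higher in terminal-like cells, against 13.0% of genes, and 1 was lower, against 11.8%. The median was 0.45 and that of all genes 0.07. Of the 5, 4 were lower enzymes of glycolysis, out of 5 of those compared. At day 19, 2 of 22 were higher, against 13.9%, and 1 lower, against 14.1%, so the counts were not above the background there. The median was 0.27 and that of all genes -0.01, with 17 of 22 above 0. Other pathway genes included 8 of 19 higher and 1 lower at day 13, and 4 of 14 higher and 2 lower at day 19. Hilpda (2.05 and 2.82), Bhlhe40, a repressor induced by low oxygen (0.96 and 1.39), the oxidase gene Ero1l (0.90 and 0.66) and the amino acid transporter Slc7a5 (0.71 and 0.69) were higher on both days.

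The number of higher members at day 13 was 8 without set 2 and 3 without set 4. Tpi1 was at 0.39, Pgam1 at 0.53 and Pkm at 0.51 without set 4, and Pdk1 had under 50 UMIs without any 1 of the sets. Under the alternatives where Pdk1 could be compared it lay between -1.27 and -2.48. With equal weight per contig table, 9 members were higher at day 19, with a median of 0.54. Without set 2 of day 19, 6 were higher, with a median of 0.46. Without set 3, 4 were higher, with a median of 0.24. Leaving out either set ended the call of Bnip3l, at -0.52 and -0.48. In all, 9 of 18 alternatives ended it, and Bnip3l was at -0.16 with states read from all UMIs and at -0.37 with cycling cells included. The myeloid genes summed to 394 CPM in terminal-like and 424 CPM in progenitor-like cells at day 13, and to 451 and 474 CPM at day 19. The NK cell markers, led by Gzma, summed to 810 and 609 CPM and to 1976 and 233 CPM. B cell markers were at 97.8 and 143 CPM and at 37.7 and 141 CPM. The part of these lists was not tested. Median depth moved with the states, from 6775.5 UMIs in progenitor-like to 8171 in terminal-like cells at day 13 and from 7041 to 10586 at day 19. With cells thinned to equal depth the median was 0.36 and 0.23, and in barcodes with at least 8000 UMIs it was 0.61 and 0.32. Thinning gives cells equal weight and cannot remove a difference that goes with their RNA content. The part of depth was not tested.

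**Figure D3:**
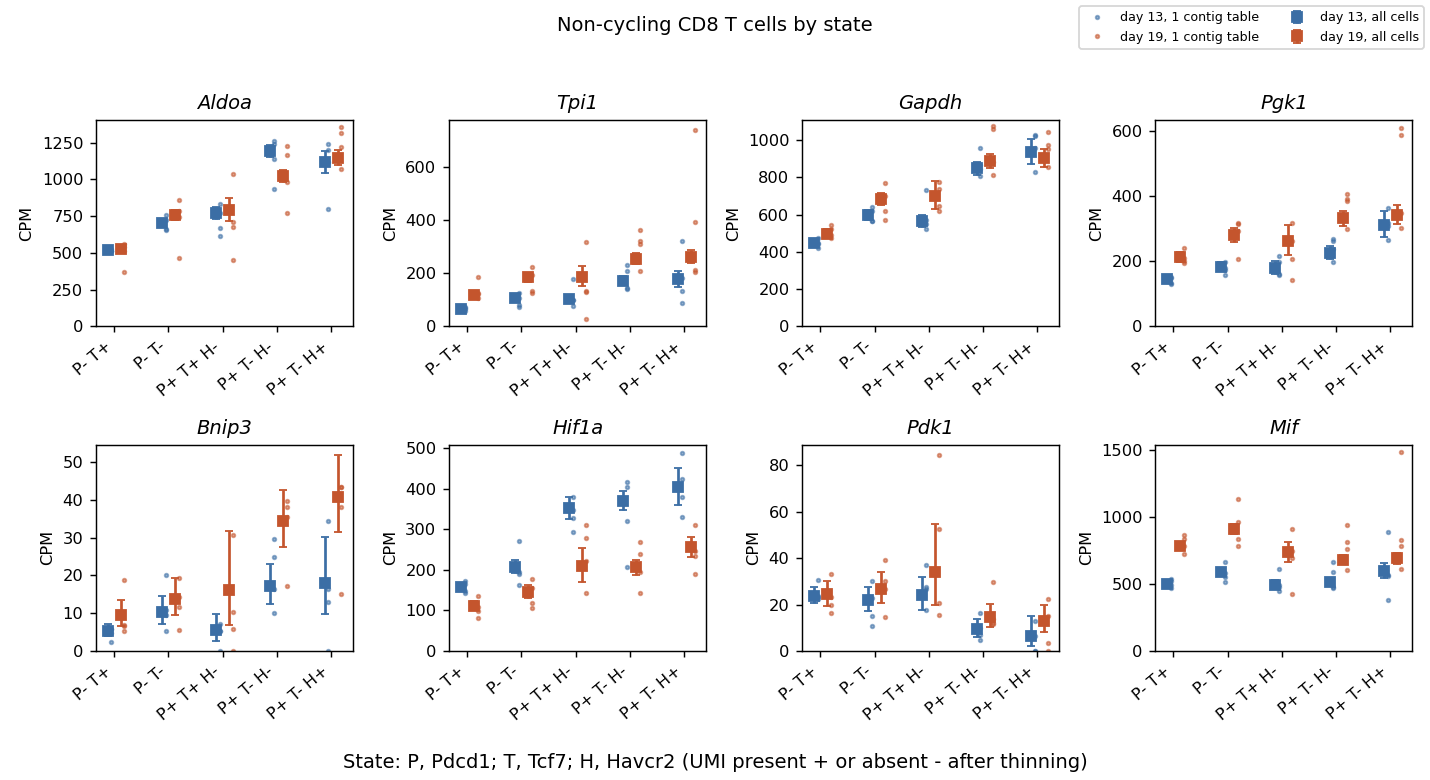
CPM (vertical axes, from 0) of 8 genes in non-cycling CD8 T cells by state (horizontal axis; P is Pdcd1, T is Tcf7, H is Havcr2) on day 13 and day 19; squares are all cells with 95% counting intervals and dots the 4 contig tables. Gapdh is at 446 CPM in the first state and 936 CPM in the last at day 13, with a dip at P+ T+ H-, while Pdk1 is at 24.1 CPM in P+ T+ H- and 6.43 CPM in P+ T- H+ cells.

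**Figure D4:**
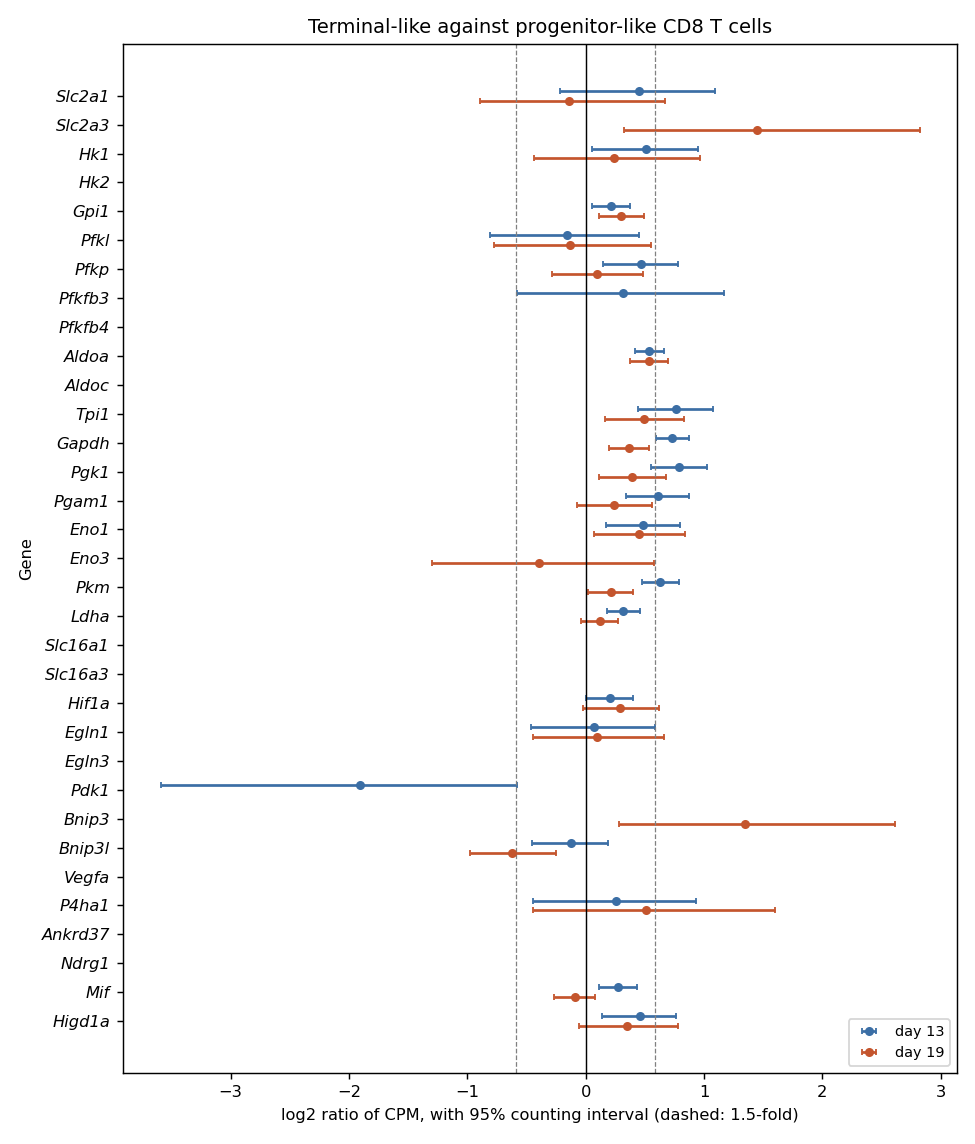
Log2 ratio of CPM in terminal-like against progenitor-like CD8 T cells (horizontal axis) for each gene (vertical axis) on both days; points are ratios, bars 95% counting intervals, dashed lines 1.5-fold, and genes below 50 UMIs have no point. Gapdh and Pgk1 lie further right at day 13 (0.73 and 0.79) than at day 19 (0.36 and 0.39), and Pdk1 lies at -1.90.

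CD8 T cells of expanded clones had more RNA of several glycolysis genes and of Hif1a than cells whose clone was seen once among kept barcodes. State and clone size are read from the same cells, so these values are not independent of those by state. A clone is the set of kept cells of 1 contig table with the same nucleotide CDR3 of both receptor chains, counted among cells with 1 TRA and 1 TRB chain. Of 8359 contig barcodes at day 13 and 4295 at day 19, 4632 and 3215 were kept. The others were not counted, so a clone of 1 can have more cells in its table. Expanded clones of 3 or more held 319 and 182 cells, and clones of 1 held 1204 and 517. Aldoa was at 608 CPM in single cells, 950.0 CPM in clones of 2, 1146 CPM in clones of 3 to 9 and 961 CPM in clones of 10 or more at day 13. At day 19 it was at 608, 919.6, 1155 and 1263 CPM. The counting intervals of clones of 1, of 2 and of 3 to 9 did not overlap on either day. Clones of 10 or more were below those of 3 to 9 at day 13, and their intervals overlapped at day 19.

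Hif1a was at 372 CPM in expanded and 193 CPM in single cells at day 13, and at 283 and 125 CPM at day 19, with ratios of 0.94 (0.83 to 1.06) and 1.18 (1.00 to 1.35). Slc2a3 was at 29.9 and 14.0 CPM, and at 29.3 and 7.64 CPM, with ratios of 1.10 and 1.94. Hk1 had ratios of 0.72 and 0.73. All 4 tables of both days were higher in expanded clones for these 3 genes.

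Bnip3 was at 11.3 and 6.78 CPM at day 13, a ratio of 0.73 (0.04 to 1.40), and at 37.6 and 8.76 CPM at day 19, a ratio of 2.10 (1.51 to 2.71). P4ha1 had ratios of 0.11 and 0.86. The monocarboxylate carriers went apart: Slc16a3 was higher in expanded clones (1.39 and 1.78), and Slc16a1, the carrier that can also import lactate, was lower (-1.11 and -0.94, the latter with an interval of -2.03 to 0.01). Pdk1 had ratios of -1.09 and -0.38 and was lower in expanded clones in all 4 tables of both days. Mif was below 0 here, at -0.17 and -0.31.

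At day 13, 9 of 29 members were higher in expanded clones, against 14.0% of genes, and 2 were lower, against 9.77%. At day 19, 10 of 28 were higher, against 13.7%, and 1 was lower, against 12.9%. The medians were 0.40 and 0.46, and those of all genes 0.13 and 0.03. Slc2a3, Hk1, Aldoa, Tpi1, Gapdh, Slc16a3, Hif1a and Bnip3 were past 1.5-fold on both days. On CPM without ribosomal, mitochondrial and T cell receptor genes, 3 of 29 were higher at day 13 and 7 of 28 at day 19, with medians of 0.18 and 0.31. Hk1 (0.50), Aldoa (0.57), Tpi1 (0.42), Gapdh (0.41) and Bnip3 (0.51) were then below 1.5-fold at day 13. This scaling moves the ratios of all genes still compared by the same amount. The share of all genes past 1.5-fold on it was not counted, so 14.0% and 13.7% are no background for these counts. Of the other pathway genes, 5 of 26 were higher and 3 lower at day 13, and 7 of 23 higher and 1 lower at day 19. Bhlhe40 (1.12 and 2.10), Hilpda (0.79 and 2.48), Mxi1 (1.31 and 1.54) and Rora (0.83 and 0.80) were higher on both days and Myc (-1.08 and -1.32) lower.

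Slc16a1 had under 50 UMIs without set 3 at day 13 and without set 2, 3 or 4 at day 19. Tpi1 was at 0.52 without set 4 at day 13. In barcodes with at least 8000 UMIs, 4 of 24 members were higher at day 13 and 9 of 25 at day 19. Tpi1 was then at 0.24, Gapdh at 0.41 and Aldoa at 0.58 at day 13. Median depth was 7245 UMIs in expanded and 6679.5 in single cells at day 13, and 9278.5 and 7417 at day 19. At day 19, Gapdh was at 0.50 without set 3. With cycling cells included, Slc16a1 was at -0.07 at day 13, and with myeloid-rich droplets kept Bnip3 was at -0.13 at day 13. The myeloid genes summed to 475 CPM in expanded and 379 CPM in single cells at day 13, and to 491 and 354 CPM at day 19.

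**Figure D5:**
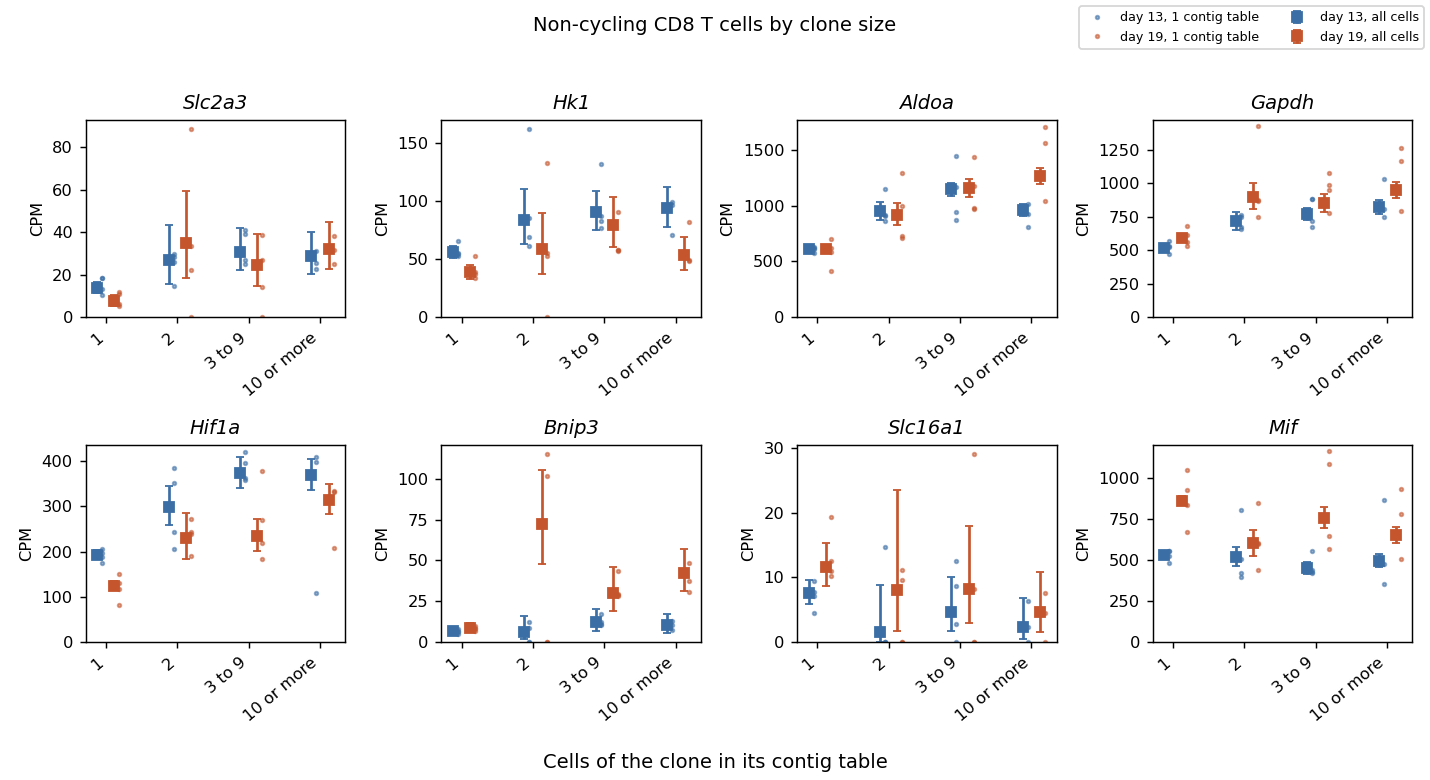
CPM (vertical axes, from 0) of 8 genes in non-cycling CD8 T cells by the number of kept cells of the clone in its contig table (horizontal axis) on day 13 and day 19; squares are all cells with 95% counting intervals and dots the contig tables. Hif1a goes from 193 to 299.7 CPM between clones of 1 and of 2 at day 13, and Mif does not share this direction.

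Cycling CD8 T cells (316 and 308 cells) had more RNA of the lower glycolytic enzymes than non-cycling ones at day 13, when 6 of 6 were past 1.5-fold. At day 19, 2 of 6 were, Gapdh and Pgk1. Tpi1, listed with the upper enzymes, was at 305 against 99.9 CPM at day 13 and at 397 against 193 CPM at day 19, ratios of 1.61 and 1.04. Gapdh was at 1165 against 575 CPM and at 1115 against 707 CPM, and Pgk1 had ratios of 1.14 and 0.67. Ldha was at 1252 against 676 CPM and at 1288 against 841 CPM. All 4 tables were higher in cycling cells for these genes on both days. The levels of Gapdh and Ldha in cycling cells differed little between the days, and those of non-cycling cells were higher at day 19.

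Slc16a3 had ratios of 1.88 (1.57 to 2.202) and 1.22 (0.85 to 1.59), and without set 4 of day 19 the second was 0.57. Hif1a was at 248 against 236 CPM and at 178 against 169 CPM, with intervals of the ratio that hold 0 on both days. Pdk1 was at 6.63 against 20.4 CPM at day 13, with tables at 3.93 to 8.82 CPM and 17.9 to 23.2 CPM, a ratio of -1.62. At day 19 it was at 17.8 against 21.4 CPM, a ratio of -0.26 (-0.62 to 0.08). Bnip3l was lower in cycling cells in all 4 tables of both days (-0.36 and -0.32). Aldoc, at 3.74 against 8.48 CPM, was the member past 1.5-fold lower at day 19.

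At day 13, 15 of 32 members were higher in cycling cells, against 19.6% of genes, and 1 was lower, against 15.5%. At day 19, 5 of 31 were higher, against 14.6%, and 1 lower, against 9.21%. The medians were 0.54 and 0.10, and those of all genes 0.05 on both days. Leaving out 1 contig set moved the day-19 median to between 0.03 (set 4) and 0.28 (set 2). All 6 lower enzymes and all 3 lactate genes were among the 15, though Eno3 (0.78) was at 0.13 without set 4 and at 0.085 in barcodes with at least 8000 UMIs. At day 19 without set 4, 1 member was higher and 2 lower, and Gapdh was at 0.58, Pgk1 at 0.53 and Ldha at 0.53. At day 13, 2 were lower without set 3 or 4. Of the other pathway genes, 6 of 29 were higher and 3 lower at day 13, and 3 of 31 higher and 1 lower at day 19. Pdk3 (0.74 and 0.78), Slc7a5 (0.97 and 0.80) and Ccng2 (0.64 and 1.20) were higher on both days, and Pdk2 (-2.29 and -1.39) lower. Cycling cells held a median of 16718 and 17179 UMIs, against 6790 and 8162. Among barcodes with at least 8000 UMIs, 8 members were higher at day 13 and 2 at day 19. On CPM without ribosomal, mitochondrial and T cell receptor genes the day-19 median was -0.04.

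Barcodes without Cd3 UMIs or receptor contigs were assigned to the marker list of which they held at least 3 genes and more than of any other list, which placed 748 and 268 of them. These are ranges of a score and not cell types. Non-cycling macrophage-like barcodes numbered 125 and 57, monocyte-like 310 and 79, microglia-like 91 and 30, and mature dendritic-like 110 and 25. The microglia-like barcodes of day 19 were led by Col3a1 and Bgn, genes of matrix-producing cells, besides P2ry12.

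Macrophage-like barcodes and CD8 T cells differed in the levels of isoforms and carriers of the same step. For transport, Slc2a1 was at 84.9 against 34.4 CPM at day 13 and at 99.0 against 37.0 CPM at day 19. Slc2a3 had 1 UMI in macrophage-like barcodes at day 13 against 17.0 CPM in CD8 T cells, a ratio of -4.55 (-9.86 to -2.06). It had 0 at day 19 against 17.4 CPM, at least 3.64-fold lower by a floor of 3 UMIs over the group. Slc2a1 was the higher of the 2 transporters in both groups.

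For hexokinase, Hk2, the inducible form, was at 71.1 against 7.10 CPM and at 38.3 against 8.00 CPM, while Hk1 was at 24.7 against 62.7 CPM and at 30.3 against 47.1 CPM. Of Hk1 and Hk2, Hk2 was thus the higher in macrophage-like barcodes and Hk1 in CD8 T cells, with overlapping counting intervals in the former at day 19. Of the lactate carriers, Slc16a3 was at 112 and 131 CPM in macrophage-like barcodes, ratios of 3.65 and 3.60, and Slc16a1 had 1 UMI there on each day, against 7.16 and 8.96 CPM in CD8 T cells. Vegfa, the angiogenic factor, was at 152 and 124 CPM against 2.31 and 2.22 CPM, ratios of 6.04 (5.54 to 6.57) and 5.81 (5.13 to 6.55). Bnip3 was at 63.1 and 105 CPM, ratios of 2.86 and 2.27. Ldha differed little, with ratios of 0.07 (-0.02 to 0.17) and 0.04 (-0.09 to 0.17).

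At day 13, 17 of 33 members were higher in macrophage-like barcodes, against 21.4% of genes, and 5 were lower, against 34.5%. At day 19, 15 of 32 were higher, against 22.9%, and 4 lower, against 30.1%. The medians were 0.61 and 0.45, and those of all genes -0.23 and -0.14. On CPM without ribosomal, mitochondrial and T cell receptor genes the members' medians were 0.27 and 0.069, with 13 higher and 8 lower at day 13 and 12 higher and 6 lower at day 19. This scaling moves the ratios of all genes still compared by the same amount, and their share past 1.5-fold on it was not counted. Of the other pathway genes, 4 of 30 were higher and 7 lower at day 13, and 9 of 29 higher and 10 lower at day 19. The myeloid hexokinase Hk3 (6.77 and 6.05), Ldhb (1.96 and 2.14), Gys1 (0.98 and 1.42) and Ero1l (0.71 and 0.60) were higher on both days. Bpgm (-1.38 and -2.43), Hif1an (-1.27 and -2.43) and Myc (-2.72 and -2.53) were lower, as was Rora, at 4.35 CPM and then 0 UMIs. With myeloid-rich T cell droplets kept, Ndrg1 was at 0.46 in place of 1.66 at day 13.

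The other lineages differed among themselves. Mature dendritic-like barcodes had Ndrg1 at 174 and 368 CPM, Eno3 at 123 and 105 CPM and Pfkfb3 at 233 and 289 CPM, while macrophage-like barcodes had 12.3 and 22.3, 3.63 and 9.58, and 56.6 and 57.5 CPM of these genes. Monocyte-like barcodes had the highest Slc16a3 of the 4 lineages on both days (140.1 and 210.1 CPM) and Bnip3 at 52.4 and 143 CPM. Microglia-like barcodes had Hk2 at 137 and 109 CPM and P4ha1 at 225 and 147 CPM, and 0 UMIs of Ndrg1 and Aldoc on both days, which allows up to 4.28 and 10.5 CPM of each by the floor of 3 UMIs. Vegfa was at 11.4 and 38.5 CPM in them, against 122 and 111 CPM in monocyte-like barcodes. Type 1 dendritic-like barcodes, 38 and 17, had Ldha at 1073 and 1184 CPM and Pfkp at 363 and 529 CPM. These values rest on few barcodes, and no difference between lineages was tested.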

How the data were processed

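Single-cell 5' RNA and T cell receptor libraries of 1 capture per day were analysed. The deposited matrices hold UMI counts per gene and barcode, per the file headers, and the authors' 4 contig tables per day hold receptor chains with their UMI counts. The antibody-tag library was not used here. The submitters' processing notes name Cell Ranger 4.0.0, STAR 2.7.5c, bcl2fastq 2.20, Seurat, R 4.1.2 and build mm10, and no source used here states how shared reads were counted. Barcodes with at least 5000 gene UMIs and at most 10% mitochondrial UMIs were kept, and no doublet caller was run. Classes, states and lineages were set by UMIs, most of them after thinning to 5000 UMIs. Counts were summed over the cells of a group and given as CPM with 95% Poisson intervals, and ratios with exact intervals for 2 Poisson counts, in Python 3.11.15 with numpy 2.4.6, scipy 1.17.1, pandas 2.3.3 and matplotlib 3.10.9. With 1 capture per day, no test was made. List medians and counts set sums of 0, 1 or 2 UMIs to a floor of 3, while the ratio of a single gene with 1 or 2 UMIs is printed as counted. All 33 members could be named, and of 48 other pathway genes those past 1.5-fold in the same direction on both days, at most the 4 highest and 4 lowest. The members and lists were chosen with earlier results of these data known. The intervals were tested on simulated data. Alternatives covered filters, cell classes, clone counting, scaling and leaving out each contig table. Thinned counts and the restriction to cells with 1 TRA and 1 TRB chain were chosen after seeing the data.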

Additional observations from a re-analysis of the deposited data

Results flagged for a closer look

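Hk2, the inducible hexokinase, had opposite directions in cycling against non-cycling CD8 T cells on the 2 days. The log2 ratio was 0.76 at day 13, with cycling cells higher in all 4 contig tables, and -0.20 at day 19 on 39 and 83 UMIs, with cycling cells lower in all 4. The 95% counting interval was 0.31 to 1.20 at day 13, and at day 19 it was -0.79 to 0.36, which holds 0. The difference between the days was not tested. The day-13 value was -0.08 with myeloid-rich droplets kept, 0.45 without contig set 3 and 0.45 in barcodes with at least 8000 UMIs.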

How the results depend on the processing

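Of the 14 median log2 ratios of the members, 230 recomputed values kept their sign and moved by less than the median half-width of the members' counting intervals, 4 moved by more and 6 reversed. Of the 230, 23 were identical to the reported median, 14 of them with at most 5% mitochondrial UMIs and 2, for expanded clones, with 1 TRA and 1 TRB chain, which defined the clones already, so these show no stability. That width is large: among the 230 are 0.069 for macrophage-like barcodes at day 19 (0.45), 0.0078 for Foxp3+ cells at day 13 (0.21, at least 8000 UMIs) and 0.18 for expanded clones at day 13 (0.40), the first and last on CPM without ribosomal, mitochondrial and T cell receptor genes. Leaving out 1 contig set reversed none of the 12 medians between T cell groups and was not run for macrophage-like barcodes. The median of Foxp3+ against Foxp3- CD4 T cells at day 19, 0.03, reversed to -0.015 with myeloid-rich droplets kept, -0.053 with at least 2 UMIs for a class, -0.0295 with at least 200 UMIs per gene, -0.052 on CPM without ribosomal, mitochondrial and T cell receptor genes and -0.23 with at least 8000 UMIs per barcode. The median of cycling against non-cycling CD8 T cells at day 19, 0.10, was 0.33 with at least 200 UMIs per gene and -0.039 on CPM without those genes. That of macrophage-like barcodes against CD8 T cells at day 13, 0.61, was 0.29 with cycling cells included, 0.27 on CPM without those genes and 0.24 with at least 8000 UMIs. On CPM without those genes only the totals change, so the ratios of all genes still compared move by the same amount within a comparison. The cause of the other shifts was not tested. Among members past 1.5-fold, 1976 recomputed values were past it in the same direction, 183 were short of it and 5 reversed. With myeloid-rich droplets kept, P4ha1 in Foxp3+ cells at day 19 was at -0.0063, Hk2 in cycling cells at day 13 at -0.081 and Bnip3 in expanded clones at day 13 at -0.13. Pfkfb3 in expanded clones at day 13 was at -0.0076 with at least 8000 UMIs, and Slc16a1 in macrophage-like barcodes at day 19 at 0.17 with thinned counts, from -0.90 at the floor.

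Over the alternatives other than leaving out a table, the number of members higher and lower ran as follows. For CD8 against Foxp3- CD4 T cells it was 1 to 2 and 3 to 12 at day 13 (1 and 8 as reported) and 1 to 4 and 8 to 14 at day 19 (3 and 11). For Foxp3+ cells it was 0 to 5 and 0 to 3 (2 and 1), and 0 to 10 and 0 to 2 (3 and 0). For cycling cells it was 8 to 18 and 1 to 4 (15 and 1), and 2 to 7 and 0 to 3 (5 and 1). For expanded clones it was 3 to 11 and 1 to 3 (9 and 2), and 6 to 19 and 0 to 2 (10 and 1). For terminal-like cells it was 3 to 13 and 0 to 1 (5 and 1), and 0 to 9 and 0 to 7 (2 and 1). For macrophage-like barcodes it was 13 to 19 and 3 to 8 (17 and 5), and 9 to 16 and 2 to 6 (15 and 4). Between the days it was 4 to 8 and 0 to 2 in CD8 (6 and 1) and 6 to 11 and 0 to 3 in Foxp3- CD4 T cells (9 and 1).

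CPM without ribosomal, mitochondrial and T cell receptor genes shifted the median of all genes by -0.36 to 0.14. No paired test was made. Both groups of a within-day T cell comparison lie in each contig set, and the report counts the sets in each direction. Depth limits the rarer members: at day 13 only 21 of 33 could be compared between terminal-like and progenitor-like cells.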
